A study of Equus caballus with 25 samples.

Results

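The expression of 8 intraflagellar transport transcripts (IFT20, IFT27, IFT57, IFT74, IFT80, IFT81, IFT88 and IFT122) was examined in cells collected by bronchoalveolar lavage (BAL) from 25 horses. The transcripts were chosen by identifier or symbol among the 7238 equine Ensembl transcripts of a custom array, with 1 transcript per gene. The 7 control horses (CTRL) were clinically healthy, the 10 MEA-affected horses had mild equine asthma, labelled IAD by the submitters, and the 8 SEA-affected horses had severe equine asthma, labelled RAO. The labels give no treatment, and each horse had 1 array. According to the methods, all CTRL horses were standardbreds, most MEA- and SEA-affected horses were saddle horses, the SEA-affected horses were older and each group held both sexes, so that breed and age cannot be fully told apart from the disease. MEA-affected horses were enrolled with neutrophilic inflammation in the lavage. In the study's cytology, macrophages were still the main cells in CTRL and MEA, whereas neutrophils were the main cells in SEA.

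Intraflagellar transport carries building blocks from the base of a cilium to its tip and back. Cargo trains consist of complex B, which travels outward with the motor kinesin-2, and complex A, which is needed for the return with dynein. In the airway, the cells that depend on it most are the multiciliated cells of the epithelium, whose motile cilia move mucus; macrophages and neutrophils, the main cells of a lavage, carry no motile cilia. IFT27, IFT74, IFT81 and IFT88 belong to the core of complex B, IFT20, IFT57 and IFT80 to its peripheral part and IFT122 to complex A.

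Each transcript was read by 1 probe of 60 bases, spotted 2 times on every array, and no other probe of the array had the same sequence. GC content lay between 35% and 45% over the 8 probes. The probes of IFT27, which had the largest difference between SEA and CTRL, of IFT74 and IFT20, which followed the other members least, and of IFT122, the member of complex A, are shown because the results turn on them. They are printed 5′ to 3′ as the array files give them, and of IFT20 the first 30 bases are given. Capitals mark 12 bases in the IFT27 probe that encode part of a GTP-binding loop common to small GTPases, and the last codon, a stop codon, in the IFT74 probe. On either strand, GACTCTGCCGGC was present in 1 of the 7238 probes (0.0138%).
IFT27: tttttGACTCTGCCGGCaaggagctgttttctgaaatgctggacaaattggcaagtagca
IFT74: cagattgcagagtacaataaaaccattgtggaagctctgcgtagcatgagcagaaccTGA
IFT122: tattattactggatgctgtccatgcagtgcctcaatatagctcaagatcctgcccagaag
IFT20: caggttctcacctcttgcattctcagtctg

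All 8 transcripts passed the intensity filter, which kept 4930 of the 7238 transcripts. The methods state no scale for its limit, which was read here as log2, and the study reported more transcripts after its own filter. None of their spots was saturated or marked as an outlier. Both spots were well above background on all 25 arrays for IFT20, IFT27, IFT57 and IFT74, on 24 for IFT80, IFT81 and IFT88, and on 22 for IFT122, which had no spot above background in SEA replicate 3 and MEA replicate 2. Of all spots on an array, 58.2% to 90.8% were well above background. The paired spots of a probe were averaged, so that the horse was the unit of replication. Their median difference on the log2 scale lay between 0.06 (IFT74) and 0.20 (IFT81), and the largest was 1.79 (IFT80). The symbols came from lists of transcripts that the study had called changed in the same horses. The differences from CTRL below are therefore not independent evidence of a direction, whereas variation between horses of 1 group was not used to name the transcripts.

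The first comparison asked how BAL cells of horses with SEA differ from those of healthy horses. All 8 transcripts were called lower in SEA (Benjamini-Hochberg adjusted p below 0.1 in limma over the 4930 transcripts, and a fold change of at least 1.5), and 16.7% of all tested transcripts were called lower. The log2 fold change ranged from -2.18 for IFT27 to -1.14 for IFT20, with a median of -1.79 against -0.01 over all tested transcripts. With normexp background correction, which added an offset of 50 to the intensities, all 8 were still called, but the median was -1.19. There 3 differences were over 1.5 times smaller in size, at -0.75 for IFT122, -0.91 for IFT80 and -1.27 for IFT81. For each of the 8 transcripts, all 8 SEA-affected horses lay below the CTRL mean. The groups still overlapped for each of the 8, whereas 1.26% of the tested transcripts had all SEA-affected horses below all CTRL horses. The lavage was measured as a whole, so that fewer ciliated cells and less RNA per ciliated cell cannot be told apart. In the study's cytology, the mean percentage of epithelial cells as a whole was higher in SEA than in CTRL. The study also reported that cilia gene expression did not correlate with epithelial cell numbers. The share of ciliated cells was not tested here.

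The second comparison addressed MEA. Here 6 of the 8 transcripts were called lower than in CTRL, all except IFT80 and IFT122, against 6.53% of all tested transcripts. Log2 fold changes ranged from -1.98 for IFT57 to -0.42 for IFT80, with a median of -1.41 against 0.03 over all tested transcripts. None of the 8 had all MEA-affected horses below all CTRL horses, which 0.223% of the tested transcripts did. These calls were less firm than those in SEA. With the slide as a block 3 of them were left, at an adjusted p below 0.05 also 3, and without CTRL replicate 1, CTRL replicate 4 or CTRL replicate 6 the count was 2, 3 and 3. With each horse's epithelial cell percentage as a covariate 0 remained, as did 0 of all 4930 transcripts in limma. In that fit 6 of the 8 and 610 of all transcripts (12.4%) had an unadjusted p below 0.05, and the median log2 fold change of the 8 was -1.31. In the study's cytology the mean epithelial percentage was higher in MEA than in CTRL, so that this covariate overlaps with the group. With the same covariate 8 of the 8 stayed calls in SEA against CTRL, beside 1538 of the 4930 transcripts. Without the intensity filter, 8 of the 8 were called in SEA and 5 in MEA against CTRL, beside 23.0% and 5.07% of the 7238 called in either direction (32.7% and 9.78% with the filter).

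**Figure D1:**
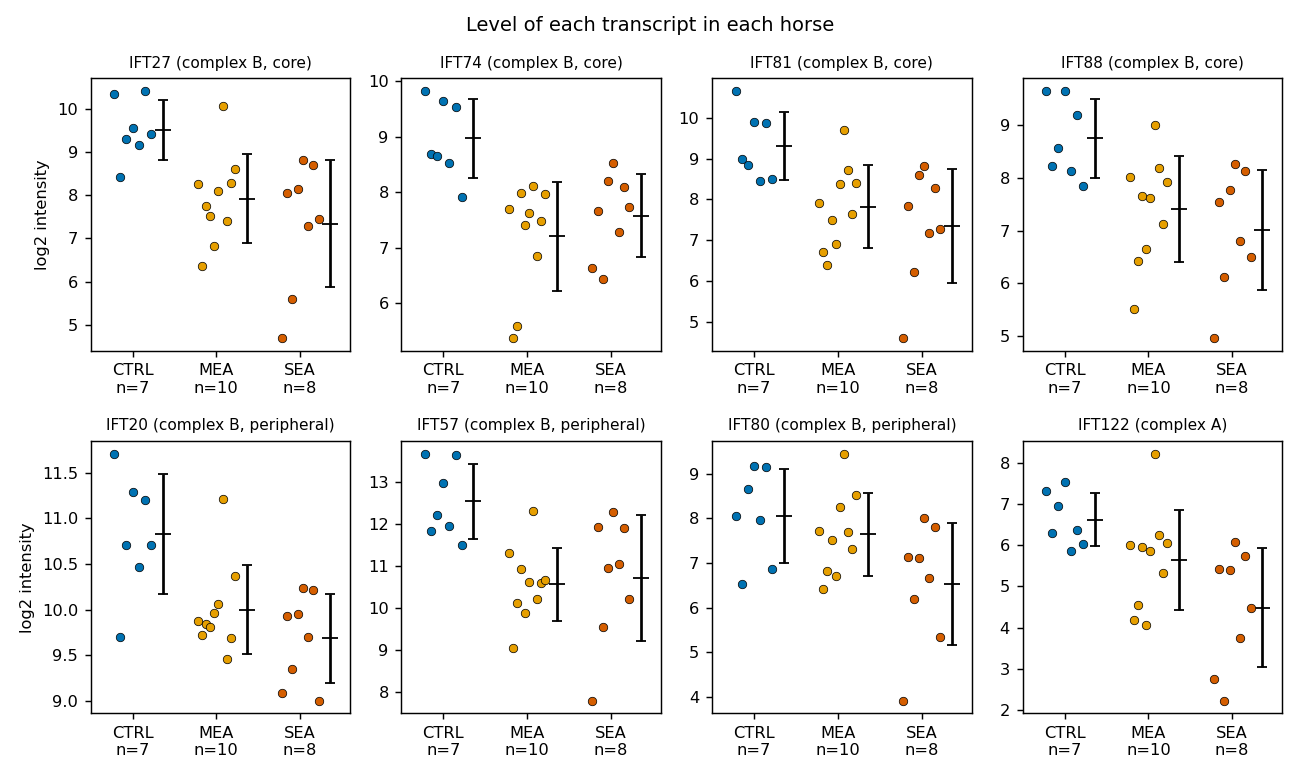
Log2 intensity (y axis, a separate scale for each panel) of the 8 transcripts in each horse, with 1 point per horse, for 7 CTRL, 10 MEA-affected and 8 SEA-affected horses; the bars beside the points give the mean and SD. MEA replicate 7 was the highest MEA horse and SEA replicate 5 the highest SEA horse in all 8 panels.

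Of the core of complex B, IFT27 is a small Rab-like GTPase. Its log2 intensity ranged from 8.44 to 10.43 in CTRL (median 9.42), from 6.36 to 10.08 in MEA (median 7.93) and from 4.68 to 8.83 in SEA (median 7.76). In SEA 6 of 8 horses and in MEA 8 of 10 lay below the lowest CTRL horse, and MEA replicate 7 was the only MEA horse above the CTRL median. Against CTRL its log2 fold change was -2.18 ± 0.56 (SE, adjusted p = 0.0156, limma) in SEA, a 4.53-fold difference, and -1.60 ± 0.41 (adjusted p = 0.0370, limma) in MEA, the latter not a call without CTRL replicate 1.

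IFT74 and IFT81 bind each other and together carry tubulin. IFT74 ranged from 7.91 to 9.83 in CTRL (median 8.69), from 5.37 to 8.11 in MEA (median 7.56) and from 6.44 to 8.53 in SEA (median 7.71) in log2 intensity. In MEA 7 of 10 horses lay below all CTRL horses, 2 of them far below the others of their group (5.37 and 5.60). Its log2 fold change was -1.76 ± 0.40 (SE, adjusted p = 0.0235, limma) in MEA and -1.39 ± 0.36 (adjusted p = 0.0155, limma) in SEA. IFT81 ranged from 8.46 to 10.66 in CTRL (median 8.99), from 6.39 to 9.70 in MEA (median 7.77) and from 4.59 to 8.82 in SEA (median 7.56). Most horses of both groups, 8 of 10 with MEA and 6 of 8 with SEA, lay below the lowest CTRL horse. Its log2 fold change was -1.49 ± 0.43 (SE, adjusted p = 0.0568, limma) in MEA and -1.97 ± 0.56 (adjusted p = 0.0202, limma) in SEA. The call in MEA was lost without CTRL replicate 1, 4 or 6.

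IFT88, a scaffold subunit without which cilia do not form, ranged from 7.85 to 9.65 in CTRL (median 8.57), from 5.51 to 9.0 in MEA (median 7.64) and from 4.96 to 8.26 in SEA (median 7.18). Here 6 horses of each diseased group lay below all CTRL horses. Both differences were calls, the log2 fold change being -1.33 ± 0.42 (SE, adjusted p = 0.0719, limma) in MEA and -1.74 ± 0.46 (adjusted p = 0.0171, limma) in SEA. The call in MEA was lost in 6 of 17 fits with 1 horse left out (CTRL replicate 1, 4 or 6, MEA replicate 2, 5 or 9).

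Of the peripheral part of complex B, IFT57 ranged from 11.51 to 13.69 in CTRL (median 12.23), from 9.05 to 12.31 in MEA (median 10.61) and from 7.79 to 12.30 in SEA (median 11.01) in log2 intensity. The groups were best separated in MEA, where 9 of 10 horses lay below all CTRL horses, against 5 of 8 in SEA. Its log2 fold change was -1.98 ± 0.40 (SE, adjusted p = 0.0210, limma) in MEA and -1.84 ± 0.59 (adjusted p = 0.0328, limma) in SEA.

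IFT20 binds IFT57 and, unlike the other members, also resides at the Golgi apparatus, from which it sends membrane proteins to the cilium. It ranged from 9.70 to 11.71 in CTRL (median 10.71), from 9.45 to 11.21 in MEA (median 9.86) and from 9.0 to 10.24 in SEA (median 9.82). CTRL replicate 2, at 9.70, lay among the diseased horses, with the next CTRL horse at 10.47, so that only 2 MEA- and 3 SEA-affected horses lay below all CTRL horses. Its log2 fold changes of -0.83 ± 0.27 (SE, adjusted p = 0.0834, limma) in MEA and -1.14 ± 0.29 (adjusted p = 0.0150, limma) in SEA were smaller in size than those of most members, as was its SD between horses of a group (0.54, against 0.84 to 1.18 in the other 7). The call in MEA was lost in 11 of 17 fits with 1 horse left out (CTRL replicate 1, 3, 4 or 6, MEA replicate 2, 3, 4, 5, 8, 9 or 10).

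IFT80 ranged from 6.52 to 9.18 in CTRL (median 8.06), from 6.41 to 9.45 in MEA (median 7.60) and from 3.91 to 8.02 in SEA (median 6.89). CTRL and MEA overlapped over nearly their whole range, with 1 MEA-affected horse below all CTRL horses. In MEA the log2 fold change was -0.42 ± 0.44 (SE, adjusted p = 0.590, limma), with a 95% interval from -1.34 to 0.51. In SEA it was -1.53 ± 0.58 (adjusted p = 0.0595, limma), the least firm of the 8 calls. It was lost without CTRL replicate 3, 4 or 6 or SEA replicate 8, with an adjusted p from 0.102 to 0.122.

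IFT122, a subunit of the core of complex A, ranged from 5.86 to 7.54 in CTRL (median 6.37), from 4.06 to 8.23 in MEA (median 5.91) and from 2.21 to 6.09 in SEA (median 4.94). In SEA 7 of 8 horses lay below all CTRL horses, and in MEA 5 of 10, while MEA replicate 7 lay above every CTRL horse. The change against CTRL was -2.15 ± 0.54 (SE, log2 scale, adjusted p = 0.0150, limma) in SEA and -0.98 ± 0.47 (adjusted p = 0.218, limma) in MEA. Without MEA replicate 7 the value in MEA was -1.27 with an adjusted p of 0.0368, a call.

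The group means were ordered CTRL, MEA, SEA for 6 transcripts and CTRL, SEA, MEA for IFT57 and IFT74. No difference between MEA and SEA was a call, which does not show that the levels were equal. In SEA against MEA 0 of the 8 were called by limma and 0 by SAM with a rank sum statistic, against 2.23% of the 4930 transcripts called in either direction by limma. At an unadjusted p below 0.05, 1 of the 8 passed, against 20.7% of all tested transcripts, a share near the background. It was IFT80 (log2 fold change -1.12, 95% interval -2.16 to -0.07, adjusted p = 0.216). For IFT122 the difference was -1.17 (-2.38 to 0.05, adjusted p = 0.251), and for the other 6 it lay between -0.58 and 0.37. This comparison is the test of whether the 2 diseases differ, since both comparisons with CTRL use the same CTRL arrays. A call for IFT80 and IFT122 in SEA and none in MEA therefore does not show that the diseases differ in these transcripts.

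Another 10 transcripts of the same transport machinery carried a symbol: IFT46, IFT52 and HSPB11 of the core of complex B, 2 transcripts of IFT172 with CLUAP1 and TRAF3IP1 of its peripheral part, IFT140 and WDR19 of complex A and KIFAP3, the non-motor subunit of kinesin-2. These symbols too came from the study's lists of changed transcripts, so that an unchanged transcript of the machinery could not appear here. All 10 were called lower in SEA, beside 16.7% of all tested transcripts, with log2 fold changes from -2.11 (IFT140) to -0.71 (HSPB11). CLUAP1 was the only one of the 18 with all SEA-affected horses (4.70 to 6.13) below all CTRL horses (6.16 to 7.43). Of all tested transcripts, 1.26% were separated in this way. In MEA 3 of the 10 were called lower, beside 6.53% of all tested transcripts. They were IFT46 (-1.68 ± 0.51 SE, adjusted p = 0.0694, limma), KIFAP3 (-1.41 ± 0.34, adjusted p = 0.0262, limma) and CLUAP1 (-0.77 ± 0.27, adjusted p = 0.0922, limma). Over the 18 transcripts, limma called lower in MEA 5 of 7 in the core of complex B and 3 of 7 in its peripheral part. It also called 0 of 3 in complex A and the 1 transcript of kinesin-2, against the same 6.53% of all tested transcripts. At an unadjusted p below 0.05 these counts were 6, 5, 2 and 1, all lower, against 13.1% of all tested transcripts that were lower at this limit. The parts of the machinery were not tested against each other.

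The transcript with the least change in MEA was TRAF3IP1, also known as IFT54. Its log2 intensity ranged from 6.52 to 8.46 in CTRL (median 7.67), from 5.28 to 9.37 in MEA (median 7.44) and from 2.5 to 7.31 in SEA (median 5.67). The MEA range enclosed the CTRL range, while all 8 SEA-affected horses lay below the MEA mean. The log2 fold change was -0.06 (95% interval -1.13 to 1.0) in MEA against CTRL and -1.96 (-3.24 to -0.68, adjusted p = 0.118, limma) in SEA against MEA, which was not a call. Between SEA and MEA, 0 of the 18 were called by limma and 3 had an unadjusted p below 0.05, all lower in SEA, against 10.1% of all tested transcripts.

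**Figure D2:**
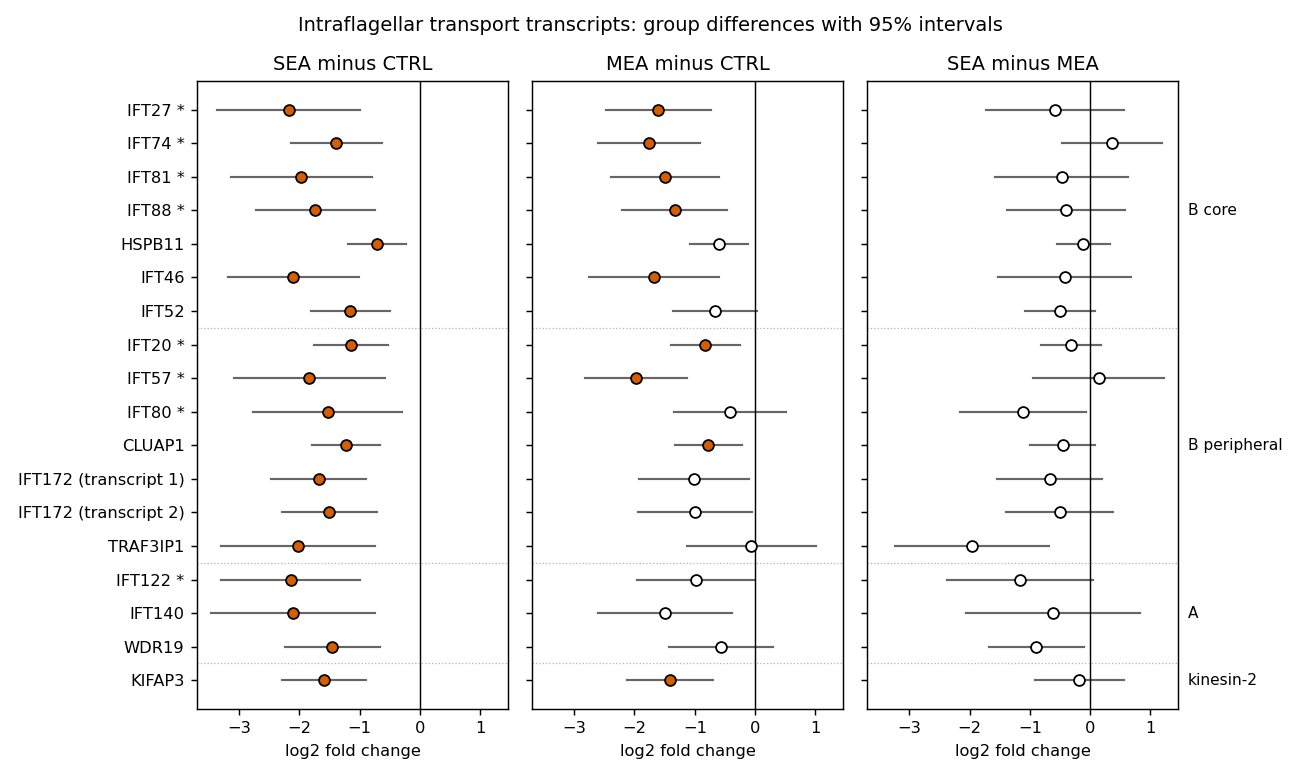
Log2 fold change (x axis) with its 95% interval for the 18 intraflagellar transport transcripts, ordered by complex, in the 3 comparisons; asterisks mark the 8 chosen transcripts, filled points are calls and open points are not. All 18 points are filled in SEA minus CTRL, 9 in MEA minus CTRL and 0 in SEA minus MEA, and the first 2 panels share the CTRL arrays.

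The 25 arrays lay on 4 slides. SEA-affected horses had lower means than the CTRL horses of the same slide for 8 of 8 transcripts on each slide, by log2 differences from -2.13 to -1.0 on slides 2 and 3, which held 3 SEA and 2 CTRL arrays each. The other slides held 1 SEA array each: SEA replicate 1 against 2 CTRL arrays on slide 1 (-5.23 to -1.61) and SEA replicate 8 against 1 CTRL array on slide 4 (-1.96 to -0.17). MEA-affected horses had lower means for 8 of 8 on slides 1 to 3 and for 6 of 8 on slide 4, which held 5 MEA arrays and 1 CTRL array; there IFT80 was higher by 1.1 and IFT122 by 0.04 on the log2 scale.

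Markers of ciliated and other cell types were compared between the same groups, and not all of them were called changed in both diseases. Of the 14 transcripts of motile ciliated cells (12 genes), 14 were called lower in SEA and 12 in MEA. Of 10 transcripts of other epithelial markers (9 genes), 10 were called lower in SEA and 4 in MEA. Over all tested transcripts, 16.7% were called lower in SEA and 6.53% in MEA. All 24, and the 5 neutrophil and 2 macrophage transcripts below, are among the transcripts that the study had called changed. The mean log2 intensity of the ciliated markers lay between 9.33 and 11.11 in CTRL, 6.03 and 10.56 in MEA, and 4.18 and 9.55 in SEA. That of the other epithelial markers lay between 7.87 and 9.91 in CTRL, 6.28 and 9.01 in MEA, and 4.66 and 8.25 in SEA. Of 5 neutrophil transcripts (4 genes), limma called 5 higher in SEA, beside 791 of all 4930, and 0 in MEA, beside 160 of all 4930. In MEA 1 of the 5 had an unadjusted p below 0.05 (22.9% of all tested transcripts did). The mean of the 5 lay between 7.24 and 11.18 in CTRL, 8.63 and 14.20 in MEA, and 8.39 and 13.73 in SEA. Of the 2 macrophage transcripts, CD68 was called higher in SEA (log2 fold change 0.84) and MARCO was not called, and their mean lay between 12.84 and 15.28 over all horses. No transcript of these lists was below background on all arrays. The part of the cell composition in the differences of the 8 transcripts was not tested.

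The members were then set against FOXJ1, the transcription factor that switches on the motile cilia program, and EPCAM, a surface protein of epithelial cells in general. Against CTRL, the log2 fold change of FOXJ1 was -1.55 ± 0.38 (SE, adjusted p = 0.0133, limma) in SEA and -1.23 ± 0.38 (adjusted p = 0.0696, limma) in MEA. That of EPCAM was -2.55 ± 0.71 (adjusted p = 0.0190, limma) in SEA and -1.34 ± 0.44 (adjusted p = 0.0822, limma) in MEA. FOXJ1 had the smallest difference of the 14 ciliated markers in both diseases (median -2.51 in SEA and -1.92 in MEA), and EPCAM the largest of the 10 other epithelial markers in SEA (median -1.99, and -1.01 in MEA). Relative to FOXJ1 on the same array, the change in SEA lay between -0.63 (IFT27) and 0.41 (IFT20), and in MEA between -0.75 (IFT57) and 0.81 (IFT80). Relative to EPCAM it lay between 0.37 and 1.41 in SEA, and in MEA between -0.64 and 0.92. Whether a member changed more or less than a marker therefore depended on the marker and the disease, and these differences are given without a test.

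To describe how far the members vary together apart from the disease, the group means were subtracted and the 28 pairs were correlated over the 25 horses. All 28 correlations were positive, from 0.581 (IFT20 with IFT74) to 0.939 (IFT81 with IFT88), with a median Pearson r of 0.817. Spearman's rho lay between 0.668 and 0.943. All 28 passed a permutation test within groups (1e+05 resamples, two-sided), with a largest adjusted p over the 28 pairs of 0.00343 for r and 0.00055 for rho. Without the 2 horses farthest from the median of the first member, r lay between 0.594 and 0.913 (median 0.769). The median r was 0.837 after subtraction of the slide means as well, and 0.952, 0.938, 0.926 and 0.814 within slides 1 to 4, where 4, 7, 5 and 5 horses shared a slide with another horse of their group. All 28 pairs were positive on each slide, and so few horses allow a description only.

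Horses of each group varied together when taken alone. The median r of the 28 pairs was 0.726 in the 7 CTRL horses, 0.787 in the 10 MEA-affected horses and 0.904 in the 8 SEA-affected horses, and all 28 were positive in each group. The lowest value was 0.373 between IFT27 and IFT122 in CTRL, against 0.944 in SEA. Whether the groups differ in this was not tested. In SEA the set was highest in SEA replicate 5 for 8 of 8 members and lowest in SEA replicate 1 for 5 of 8. In MEA it was highest in MEA replicate 7 for 8 of 8 and lowest in MEA replicate 2 for 5 of 8.

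**Figure D3:**
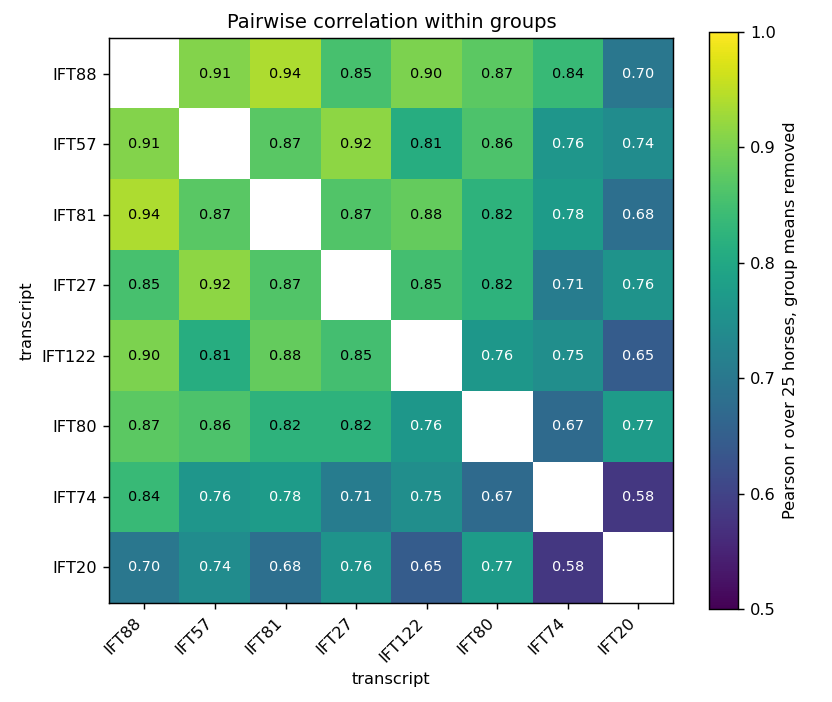
Pearson r between each pair of the 8 transcripts over 25 horses after subtraction of the group means (color scale from 0.5 to 1, transcripts ordered by their r with the other 7). The values run from 0.94 between IFT81 and IFT88 to 0.58 between IFT20 and IFT74, and the lowest values lie in the rows of IFT74 and IFT20.

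The strength of a pair did not simply follow the division of the complexes. The 6 pairs within the core of complex B had a median r of 0.846 (0.710 to 0.939), the 3 within the peripheral part 0.775 (0.744 to 0.861) and the 4 of IFT122 with the core 0.866 (0.747 to 0.902). Of subunits known to bind each other, IFT74 and IFT81 had an r of 0.775, and IFT20 and IFT57 one of 0.744. IFT27 and HSPB11, which form a dimer, had an r of 0.451 and a rho of 0.5 (permutation p = 0.0258 and 0.0146, two-sided; a pair chosen after the other values were seen), and r was 0.464 without the 2 farthest horses.

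Each member was also set against the mean of the other 7, which orders the members by how closely they follow the set. Within groups, r was 0.955 for IFT88, 0.930 for IFT57, 0.924 for IFT81, 0.912 for IFT27, 0.881 for IFT122 and 0.879 for IFT80. The members least tied to the set were IFT74 with 0.789 and IFT20 with 0.754. Both were also the lowest of the 8 among MEA-affected horses (0.724 and 0.697) and among SEA-affected horses (0.894 and 0.865). Among CTRL horses the order differed, with IFT80 (0.697) and IFT122 (0.718) lowest and IFT74 at 0.900. The order among 7 to 10 horses is a description and carries no test.

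The same measure over the 4922 other tested transcripts had a median of -0.03, and 95% of them lay below 0.772. Of these, 280 (5.69%) followed the set at least as closely as IFT20. The r of the 10 other intraflagellar transport transcripts within groups lay between 0.564 (HSPB11) and 0.963 (IFT46), with a median of 0.873, and that of the 14 ciliated markers between 0.877 and 0.959. The other epithelial markers lay between 0.127 and 0.894 (median 0.746), the 5 neutrophil transcripts between -0.25 and 0.06, and the macrophage transcripts MARCO and CD68 at 0.109 and -0.66.

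**Figure D4:**
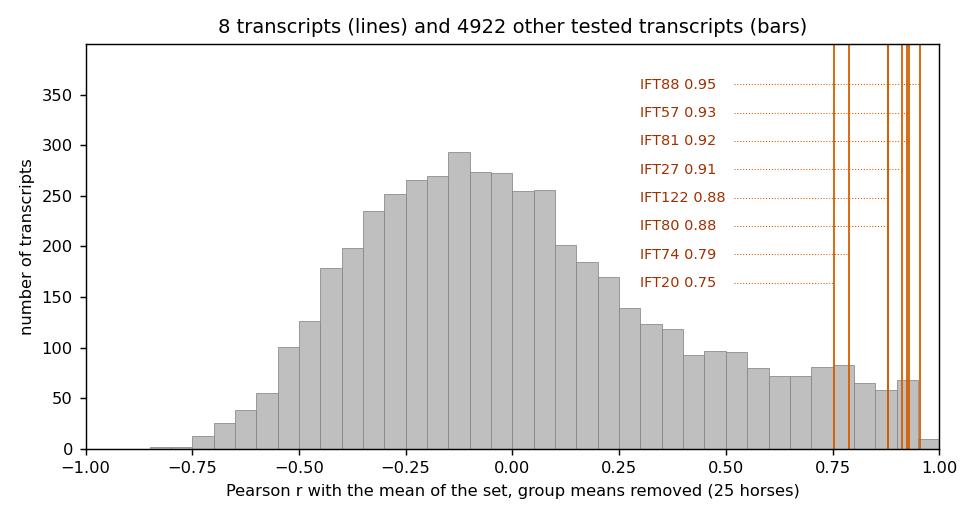
Number of tested transcripts (y axis) by their Pearson r with the mean of the set over 25 horses, group means subtracted (x axis); bars count the 4922 other transcripts and lines mark the 8 members, each against the mean of the other 7. The lines lie between 0.754 and 0.955, in the right tail of the bars.

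The members also differed in how much they changed relative to the mean of the 8 on the same array. From CTRL to MEA, IFT80 rose against the set mean by 0.88 and IFT20 by 0.47, while IFT57 fell by 0.68 and IFT74 fell by 0.46 on the log2 scale. From CTRL to SEA, IFT20 rose against the set mean by 0.60 and IFT74 by 0.35, while IFT27 fell by 0.44 and IFT122 fell by 0.40. The distance of IFT88 from the set mean changed by no more than 0.04 in both. These values show unequal change within the set and were not tested.

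Within groups, FOXJ1 followed the members with r from 0.721 (IFT80) to 0.885 (IFT88), and EPCAM with r from 0.503 to 0.849 (IFT57). All 16 correlations had an adjusted p below 0.05 in the permutation test (largest 0.00849 for r). Without the 2 horses farthest from the median of the marker, the lowest r was 0.576 for FOXJ1 and 0.533 for EPCAM. The share of spots above background, a measure of array quality, correlated less with the members, with r from 0.13 to 0.43 and rho from 0.05 to 0.42 within groups (smallest adjusted p 0.170 for r and 0.331 for rho over 8 permutation tests; r from 0.10 to 0.40 without the 2 farthest arrays).

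Over all 25 horses, the 10 transcripts outside the set whose level was most like the mean of the 8 members were LEAP2, IFT46, NME5, GALNTL4, RSPH3, SPAG6, ARMC4, UBXN10, TPPP3 and TTC18, with r from 0.978 to 0.963. IFT46 is itself part of the core of complex B. SPAG6 and RSPH3 belong to the machinery of the motile axoneme and ARMC4 helps to attach its outer dynein arms, whereas LEAP2 encodes a secreted peptide and GALNTL4 a glycosyltransferase. Each of the 10 kept an r of at least 0.941 within groups.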

How the data were processed

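RNA from BAL cells of 25 horses was hybridized to one-color arrays, 1 per horse, with 2 spots for each of 7238 transcripts. The spot intensities deposited by the authors are those of the scanner software, background-corrected array by array. A second table deposited by the authors held intensities normalized across arrays by cyclic loess (R 2.11.1 in the submitters' processing notes), on a linear scale; its log2 values correlated at 0.9994 with those obtained here.

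Log2 intensities were normalized by cyclic loess (span 0.7, 3 iterations), the paired spots of each probe were averaged, and a transcript was removed if it was under 4.5 on 19 or more arrays. Groups were compared pairwise with limma 3.58.1 in R 4.3.3 over 4930 transcripts; a call needed at least a 1.5-fold change with an adjusted p (Benjamini-Hochberg) below 0.1. Correlations used SciPy and permutation of horses within groups. The steps were checked on simulated data. No genome build was given in the sources used here and no positions are reported.

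The members and lists were chosen with earlier results of these data known. Named are the 8 members, the 10 other intraflagellar transport transcripts that carry a symbol, FOXJ1, EPCAM, the 10 transcripts with the highest r with the set over 25 horses, and, chosen after their values were seen, CD68 and MARCO. Marker lists were motile ciliated cells (14 transcripts), other epithelial markers (10), neutrophils (5) and macrophages (2), all from transcripts the study had called changed. The authors' lists of fold changes were used only for symbols. Alternatives were other normalizations and filters, SAM with a rank sum statistic, stricter and looser thresholds, blocks for slide and replicate number, the percentage of epithelial cells from the study's cytology as a covariate, and each horse left out. Group and slide means were subtracted together, and slides taken singly, after the data had been seen.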

Additional observations from a re-analysis of the deposited data

Results flagged for a closer look

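In the 24 groups of values (8 transcripts in 3 groups of horses), Dixon's test for a single outlying horse marked 2, where chance marks about 1 in 20. Both were MEA replicate 7, the highest MEA-affected horse, with a log2 intensity of 11.21 for IFT20 and 8.23 for IFT122. The array of this horse was the highest of its group for 8 of 8 members, and without it 7 of the 8 were called lower in MEA.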

How the results depend on the processing

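In SEA against CTRL, 8 members were called under 11 of 13 alternatives, 7 at an adjusted p below 0.05 and 6 with the replicate number as a block, which lost IFT57 and IFT80. In MEA against CTRL the 6 calls became 3 with the slide as a block, 3 at an adjusted p below 0.05, 3 with the replicate block and 0 with the epithelial cell percentage as a covariate, and the other alternatives gave 4 to 6; all 8 fold changes stayed negative in each. The study compared its groups as unpaired. Of 22 pairs with the same replicate number in different groups, 10 correlated above 0.1 (median 0.03), beside 56 of 184 pairs with other numbers (median -0.01). Of 23 horses, 3 were closest to a horse of another group with their own number. With each horse left out in turn, 7 to 8 members were called in SEA, 2 to 7 in MEA and 0 to 0 between SEA and MEA, and the median pairwise r was 0.788 to 0.832; other scalings, Spearman's rho and slide means gave 0.789 to 0.837. IFT57, which had a log2 difference of 0.14 between SEA and MEA that was no call, changed sign with the slide as a block (-0.20) and without SEA replicate 2, 5 or 7 or MEA replicate 2 (-0.033, -0.086, -0.030 and -0.029), within a range of -0.086 to 0.56 over the horses left out. Counts over all transcripts moved more. In SEA against CTRL, 1612 became 842 with normexp background correction (offset 50). In MEA against CTRL, 482 became 157 with normexp, 210 at an adjusted p below 0.05, 183 with the slide block, 138 with the replicate block and 0 with the epithelial covariate, where 610 had an unadjusted p below 0.05. In SEA against MEA, 110 became 39 with quantile normalization, 279 in a fit of all 25 arrays, 424 by SAM, 2 at an adjusted p below 0.05, 37 with the epithelial covariate, and 0 with 75th percentile scaling, normexp, the slide block or the replicate block, where 992, 848, 659 and 638 had an unadjusted p below 0.05 in limma. The cause of these changes was not tested.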
